A study of Mus musculus with 12 samples.

Results

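The genes described here encode the proteins of the mitochondrial ribosome, and they were taken as every gene on the array whose only symbol begins with Mrpl or Mrps and a number. They numbered 75 of 18163 genes, 46 named for the large subunit and 29 for the small subunit, and 152 probe sets of the array measure them. Each gene was represented by its brightest probe set over the 12 arrays. Mrpl30 and Mrpl53 were left out because their probe sets also match another gene.

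Mid-2-cell mouse embryos were profiled on 12 Affymetrix arrays in 4 groups of 3: Oct4-MO embryos with the uninjected controls of that experiment, and Ccna2-MO embryos with the uninjected controls of theirs. Embryos were recovered at the 1-cell stage, 17 h after hCG, from wild-type F1 (C57BL6xDBA/2) females aged 3 to 5 weeks mated with wild-type males. Those of the injected groups were injected at once, and all were then cultured to the mid-2-cell stage. Each array held 1 pool of 20 embryos from 3 to 6 females, of which the equivalent of 10 was amplified. Per the labels, injected embryos received 0.6 mM of a morpholino (MO, an antisense oligonucleotide that blocks translation of its target) against Oct4, a pluripotency transcription factor, or against Ccna2, which encodes the cell cycle regulator cyclin A2, for which the study's text gives a higher dose than the labels. A translation-blocking MO need not lower its target's mRNA, so these arrays hold no direct check of the knockdown. The controls were not injected at all, so the effect of an MO and that of injection cannot be told apart within either comparison.

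Mitochondrial ribosomes translate the few respiratory chain subunits that the mitochondrial genome encodes. All of their proteins are encoded in the nucleus, made on cytosolic ribosomes and imported, and many descend from bacterial ribosomal proteins while others exist only in mitochondria. The oocyte supplies the mitochondria of the early embryo, and in the mouse the embryonic genome takes over from maternal transcripts around the 2-cell stage. More or less of a transcript and more or less RNA per embryo cannot be told apart in such pools.

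The deposited values were already normalized, so an even level over the arrays is no measure of their quality. The median value of an array was between 22.7 and 25.5, and 39.3 to 42.7% of probe sets were under 16. Of 10 markers of oocyte and 2-cell embryo, 8 were measured, each with a mean of at least 210.1, and their summed level was 12738 to 15041 in Oct4-MO embryos, 15433 to 16305 among their controls, 15631 to 17124 in Ccna2-MO embryos and 16903 to 18488 among their controls. The 11 measured of 12 cumulus cell markers summed to 429 to 596 in Oct4-MO embryos, 251 to 338 among their controls, 345 to 479 in Ccna2-MO embryos and 190.1 to 364 among their controls, with 7 of them, among these Ptgs2, Ptx3 and Fshr, at a mean under 16. The 6 sperm markers summed to 330.0 to 364 in Oct4-MO embryos, 242 to 290.3 among their controls, 224 to 304 in Ccna2-MO embryos and 206 to 248 among their controls, with Odf1 and Akap4 at a mean under 16. The cumulus and sperm sums were thus higher in Oct4-MO embryos than in their controls without overlap, and the embryo sum lower. Single genes carried these sums: Cyp11a1, a steroidogenic enzyme, averaged 331 in Oct4-MO embryos, against 131 among their controls. In Ccna2-MO embryos Cyp11a1 averaged 216, against 82.0 among their controls, also without overlap. Prm1, a protamine, averaged 233 in Oct4-MO embryos, against 160.4 among their controls. Star, Inhba and Tnp1 were also higher without overlap in Oct4-MO embryos, while Tnfaip6, Fshr and Prm2 were lower without overlap. Of the embryo markers, Trim43a and Dppa3 were lower and Zar1 and Gdf9 higher without overlap in both knockdowns. Their part in the values below was not tested.

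Most mitochondrial ribosomal protein transcripts gave a signal above the median of the array's probe sets. Of the 75 genes, 70 were among the brighter probe sets (42 of the large and 28 of the small subunit), against 62.9% of all genes, and 65 were above 16 on all 12 arrays. Mean values over the 12 arrays ran between 9.64 and 2231 with a median of 199.8, and 12 genes averaged over 500. Values depend on the probes, so their order ranks probe sets and not amounts of transcript.

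The 5 brightest genes were Mrpl51, Mrps30, Mrps6, Mrps18b and Mrps14. Mrpl51, a protein that exists only in mitochondrial ribosomes, had values of 2419, 1795 and 2389 in Oct4-MO embryos, 2398, 1946 and 2217 among their controls, 1598, 1464 and 2937 in Ccna2-MO embryos and 1916, 2494 and 3196 among their controls. These 4 groups overlapped throughout. Mrps30 keeps a small subunit name but sits in the large subunit of the mammalian mitochondrial ribosome, and it averaged 1738 ± 125 in Oct4-MO embryos, 1885 ± 219 among their controls, 1423 ± 291 in Ccna2-MO embryos and 1613 ± 81.1 among their controls (SD, n = 3 each). The dimmest were Mrps34, Mrpl14 and Mrpl27, whose means over the groups were 3.76 to 22.3. Mrps34 is read here from a dim probe set only, because another one is shared with Nme3.

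The 3 paralogs Mrps18a, Mrps18b and Mrps18c descend from 1 bacterial small subunit protein, and Mrps18a sits in the large subunit. Mrps18a averaged 76.1 ± 25.7 in Oct4-MO embryos, 57.7 ± 17.8 among their controls, 55.7 ± 5.98 in Ccna2-MO embryos and 44.0 ± 4.15 among their controls. Mrps18b averaged 945 ± 218 in Oct4-MO embryos, 1039 ± 98.7 among their controls, 937 ± 328 in Ccna2-MO embryos and 1054 ± 64.6 among their controls. Mrps18c averaged 191 ± 13.5 in Oct4-MO embryos, 177 ± 42.1 among their controls, 167 ± 14.8 in Ccna2-MO embryos and 155 ± 26.6 among their controls. Only the Mrps18a arrays of the Ccna2-MO experiment did not overlap between groups, and these by very little. The lowest Ccna2-MO value was 48.79 and the highest uninjected value 48.72, and 9.89% of all genes were higher without overlap there. None of the 3 paralogs passed the test described below. Mrps36, now known as a subunit of the 2-oxoglutarate dehydrogenase complex and not of the ribosome, averaged 41.3 ± 18.3 in Oct4-MO embryos, 49.1 ± 4.25 among their controls, 60.2 ± 16.3 in Ccna2-MO embryos and 86.6 ± 12.2 among their controls.

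Within a group the arrays differed by a median SD of 0.43 on the log2 scale over the 75 genes, 0.18 for Mrps30 and 1.15 for Mrps24. The 4540 genes of similar brightness had a median SD of 0.46. Precision is therefore limited: the median standard error of a log2 fold change was 0.38 for large subunit and 0.29 for small subunit genes in each knockdown, and it reached 0.77. A gene that does not pass a test of this precision is not shown to be unchanged.

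In Oct4-MO embryos no mitochondrial ribosomal protein transcript passed the test against the uninjected embryos, at an adjusted p under 0.05 over all probe sets, where 0.0936% of all genes and 0.0734% of probe sets passed. The large subunit had a median log2 fold change of 0.01 and the small subunit of -0.04, beside 0.01 over all genes. With an array left out these medians ran between -0.12 and 0.03 for the large and between -0.13 and 0.04 for the small subunit, so neither has a settled sign, and 24 of 46 large and 13 of 29 small subunit genes were above 0. At an unadjusted p under 0.05 there were 9 genes, 3 higher (Mrpl18, Mrpl9, Mrps23) and 6 lower (Mrpl21, Mrpl28, Mrpl40, Mrpl54, Mrps6, Mrps10), where 4.66% of all genes were higher and 5.96% lower by that rule. In 5 genes all Oct4-MO arrays were above all uninjected arrays and in 7 they were below, where 9.21% and 9.57% of all genes were.

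The smallest p belonged to Mrpl18, a large subunit protein with a bacterial counterpart. Its values were 477, 560.1 and 391 in Oct4-MO embryos, against 345, 232 and 286 in uninjected embryos, so the groups did not overlap. The log2 fold change was 0.70 ± 0.20 (SE), with an adjusted p of 0.26. The next was Mrps6, one of the brightest, also with a bacterial counterpart, with 1289, 719 and 948 in Oct4-MO embryos, against 1789, 1403 and 1559.5 in uninjected embryos. Every Oct4-MO array was below every uninjected array, and the log2 fold change was -0.71 ± 0.23, with an adjusted p of 0.31. The study's gene lists, chosen on these arrays, name Mrps6 and Mrpl39 among the lower genes and Mrpl9 and Mrps23 among the higher ones. Those lists rest on another rule, a ranking by fold changes and an unpaired t statistic with a false discovery rate from permutations. These 4 genes are therefore not independent evidence of their direction.

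Mrpl21, another gene with a bacterial counterpart, had 216, 191 and 534 in Oct4-MO embryos, against 547, 615 and 548 in uninjected embryos. Oct4-MO replicate 3 was close to the controls while the other 2 were far lower, and the log2 fold change was -0.97 ± 0.32 (adjusted p = 0.34). Mrps10 had 6.18, 10.1 and 35.1 in Oct4-MO embryos, against 80.4, 64.2 and 41.8 in uninjected embryos, again without overlap but at low signal (log2 fold change -1.31 ± 0.49, adjusted p = 0.42). Mrpl54 was at low signal too, with 12.6, 16.1 and 10.4 in Oct4-MO embryos, against 33.5, 40.3 and 21.98 in uninjected embryos, with a log2 fold change of -0.71 ± 0.27. Mrpl40, found only in mitochondrial ribosomes, had 502, 425 and 628 in Oct4-MO embryos, against 799.9, 705 and 801 in uninjected embryos, with a log2 fold change of -0.57 ± 0.23. Mrpl28 and Mrpl49 overlapped between groups, at -1.41 ± 0.60 and -0.75 ± 0.38, and Mrpl49 was at -0.49 without Oct4-MO replicate 3. With all probe sets of a gene averaged, Mrpl21 was at -0.30, Mrpl28 at -0.59 and Mrpl54 at -0.33.

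**Figure D1:**
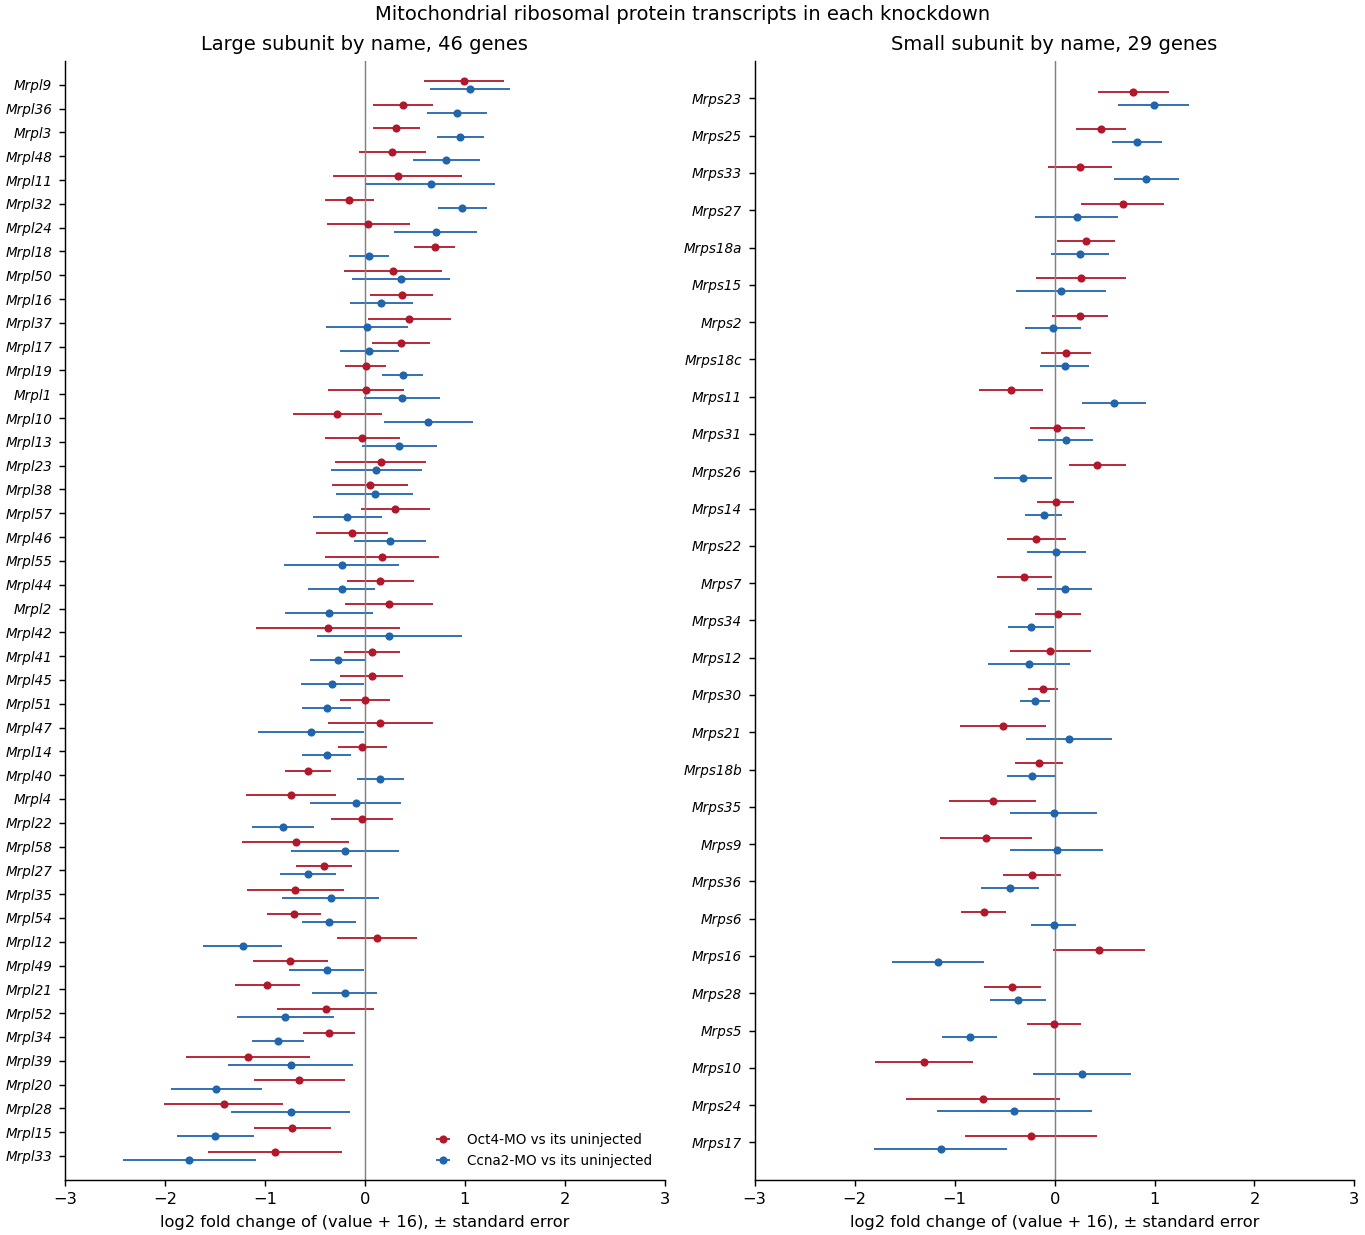
Log2 fold change of (value + 16), with its standard error, of each of the 46 large subunit (left) and 29 small subunit genes (right), in Oct4-MO embryos (red) and Ccna2-MO embryos (blue) against their own uninjected embryos. Genes are ordered by the mean of both changes and fall to both sides of 0 in each panel.

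In Ccna2-MO embryos no member passed either, where 0.93% of all genes and 0.748% of probe sets did. Large subunit genes had a median log2 fold change of -0.19 and small subunit genes of -0.01, beside 0.03 over all genes. With an array left out these medians ran between -0.26 and -0.05 for the large and between -0.08 and 0.06 for the small subunit, whose sign is therefore not settled. At an unadjusted p under 0.05 there were 8 genes higher and 8 lower, where 8.22% and 8.5% of all genes were. Arrays did not overlap in 9 genes that were higher and 6 that were lower, where 9.89% and 9.29% of all genes were. The 4 smallest p values below were of large subunit genes with bacterial counterparts.

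Mrpl3 had 439, 583 and 506 in Ccna2-MO embryos, against 262, 252 and 246 in uninjected embryos. Its uninjected arrays lay close together and all Ccna2-MO arrays were far above them, with a log2 fold change of 0.95 ± 0.24 (adjusted p = 0.087). Mrpl32 had 813, 487 and 589 in Ccna2-MO embryos, against 306, 320.1 and 290.1 in uninjected embryos, likewise without overlap (log2 fold change 0.98 ± 0.25, adjusted p = 0.091). Mrpl15, the member with the most probe sets (8), had 18.7, 55.5 and 45.6 in Ccna2-MO embryos, against 184, 126 and 104 in uninjected embryos. Every Ccna2-MO array was below every uninjected array, with a log2 fold change of -1.49 ± 0.39 (adjusted p = 0.099). Mrpl34 had 242, 155 and 241 in Ccna2-MO embryos, against 309, 491 and 400.5 in uninjected embryos, with a log2 fold change of -0.87 ± 0.26 (adjusted p = 0.15).

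Of the remaining genes with the smallest p, Mrps25, Mrpl36 and Mrps33 were higher in Ccna2-MO embryos and Mrpl20, Mrps5 and Mrpl12 were lower. Mrps25, a protein specific to mitochondria, had 876, 692 and 507 in Ccna2-MO embryos, against 294, 407 and 436 in uninjected embryos (log2 fold change 0.83 ± 0.25, adjusted p = 0.15), but its log2 fold change was 0.03 (adjusted p = 0.97) when its probe sets were averaged. Mrpl20 had 109.5, 21.4 and 105 in Ccna2-MO embryos, against 243, 141 and 290.1 in uninjected embryos (log2 fold change -1.48 ± 0.46), with Ccna2-MO replicate 2 far below the other 2, and -0.91 without that array. Mrpl12, the counterpart of the bacterial stalk protein that contacts translation factors, had 189, 310.0 and 674 in Ccna2-MO embryos, against 799, 906 and 761 in uninjected embryos. Its Ccna2-MO replicate 3 came near the controls, and the log2 fold change was -1.22 ± 0.40 (adjusted p = 0.18). Without that replicate it was -1.69, with an adjusted p of 0.040, and Mrpl12 was then the only member called. Mrps5, Mrpl36 and Mrps33 had log2 fold changes of -0.85 ± 0.27, 0.92 ± 0.30 and 0.92 ± 0.32. Averaged over its probe sets Mrps5 was at -0.09. Mrpl36, which is in the dimmer part of the array, had 60.1, 20.1 and 13.3 in Ccna2-MO embryos, against 4.55, 12.4 and 4.37 in uninjected embryos, and was at 0.51 without Ccna2-MO replicate 1. Mrps33 was at 0.59 without replicate 1 of the uninjected arrays. Averaged over their probe sets, Mrpl3 was at 0.37 and Mrpl15 at -0.60.

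**Figure D2:**
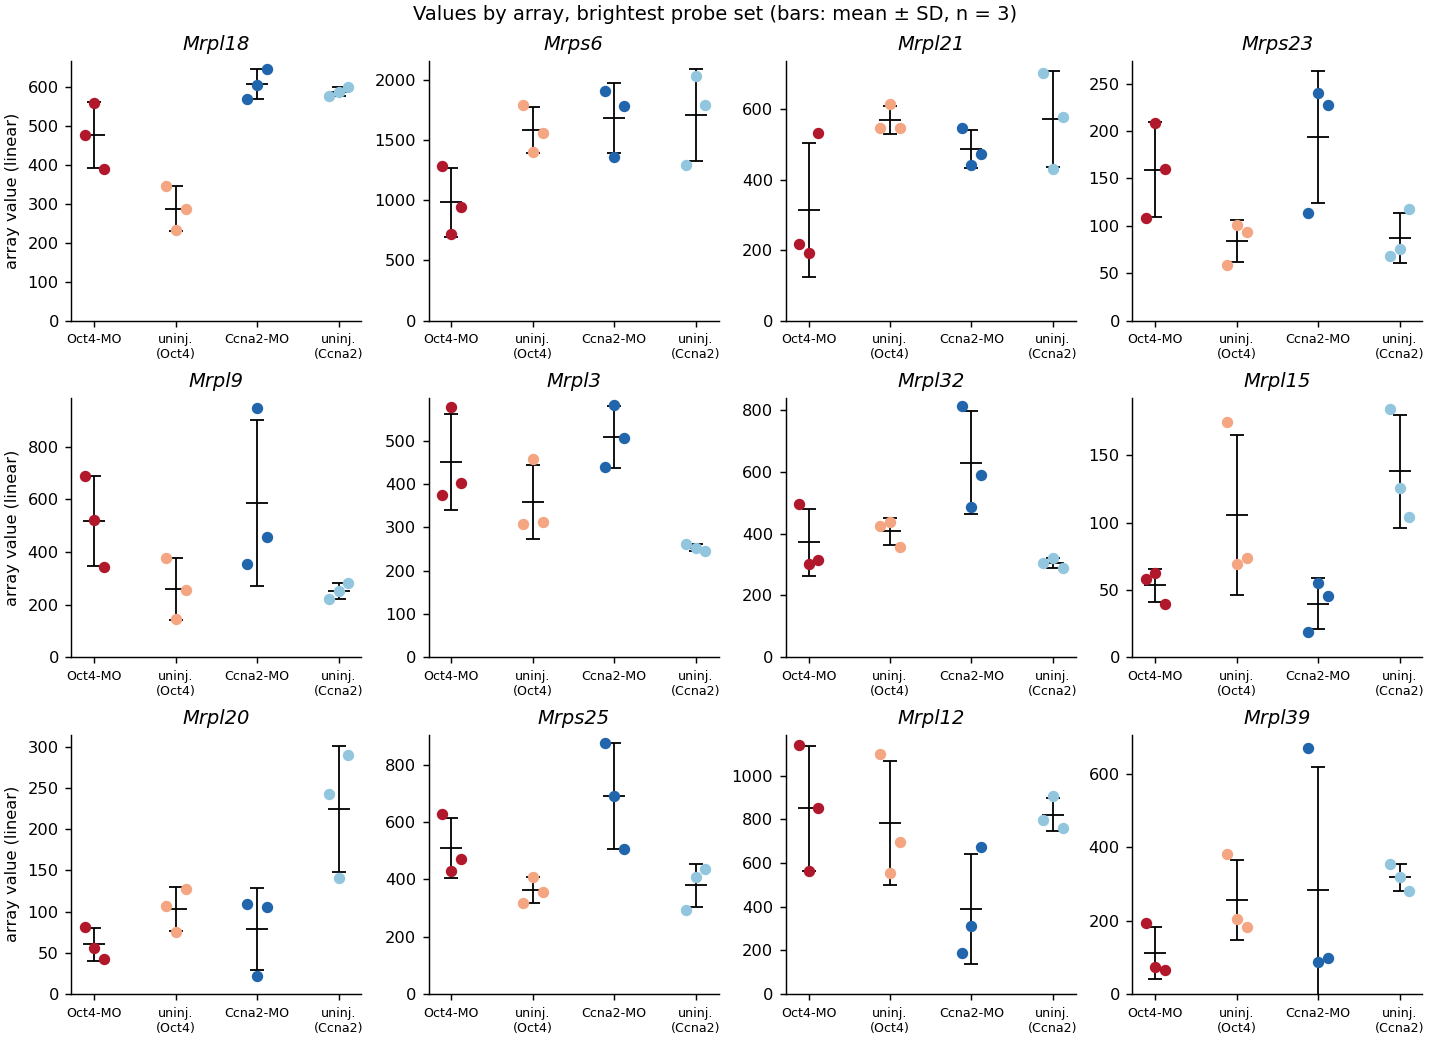
Linear array values of the brightest probe set of 12 members in Oct4-MO embryos, their uninjected embryos, Ccna2-MO embryos and their uninjected embryos, with each array as a point and bars for mean ± SD (n = 3). Mrpl18, Mrps6 and Mrps23 in Oct4-MO embryos and Mrpl3, Mrpl32 and Mrpl15 in Ccna2-MO embryos lie apart from their controls or nearly so, while the Mrpl39 Ccna2-MO points are split and its SD bar reaches below 0, where the axis ends.

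No member differed between the knockdowns at an adjusted p under 0.05, and 0.0% of all genes and 0.00223% of probe sets did. At an unadjusted p under 0.05, 4 members were higher and 5 lower in Oct4-MO relative to Ccna2-MO embryos (3.19% and 3.93% of all genes, 7.11% in all). They were led by Mrpl32, whose change was lower in Oct4-MO than in Ccna2-MO embryos by a log2 difference of -1.13 ± 0.35 (adjusted p = 0.64). Mrps16, Mrpl12 and Mrpl18 followed, at 1.61 ± 0.65, 1.34 ± 0.56 and 0.66 ± 0.29. Mrps16 had 81.5, 108 and 53.7 in Oct4-MO embryos, against 56.6, 91.1 and 26.98 in their controls, and 48.9, 29.5 and 32.5 in Ccna2-MO embryos, against 214, 48.0 and 94.2 in theirs. Of its Ccna2-MO controls, replicate 1 stood far above the other 2.

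The mean of both changes was tested next. A single knockdown can carry this mean, so it cannot tell whether a change was shared. Mrps5 was at -0.0056 after Oct4-MO injection and -0.85 after Ccna2-MO injection, and its mean still had an unadjusted p of 0.046. Mrpl32 had opposite signs, -0.16 after Oct4-MO and 0.98 after Ccna2-MO injection, and an unadjusted p of 0.035 for its mean. Again no member passed on its brightest probe set, where 3.22% of all genes did, although Mrpl15 came close with a mean log2 fold change of -1.11 ± 0.27 and an adjusted p of 0.057. Mrpl3, Mrps25 and Mrpl9 followed, at 0.64 ± 0.17, 0.65 ± 0.18 and 1.02 ± 0.28, with adjusted p of 0.070, 0.080 and 0.082. With the probe sets of each gene averaged, Mrpl15 was at -0.49, Mrpl3 at 0.15 and Mrps25 at 0.17. At an unadjusted p under 0.05, 9 members were higher and 10 lower, where 8.52% and 10.2% of all genes were (18.7% in all). In 6 members (Mrpl3, Mrpl9, Mrpl36, Mrpl48, Mrps23, Mrps25) every injected pool was above the uninjected pool of its own number in all 6 pairs, and in 4 (Mrpl15, Mrpl20, Mrpl33, Mrpl34) every one was below. Over all genes these shares were 5.38% and 6.68%.

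Mrpl9, a large subunit protein with a bacterial counterpart, had 687, 523 and 343 in Oct4-MO embryos, against 379, 146 and 254 in uninjected embryos. In Ccna2-MO embryos it had 355, 945 and 457, against 221, 251 and 282 in uninjected embryos. The groups overlapped in the Oct4-MO experiment and not in the Ccna2-MO experiment, with a log2 fold change of 0.99 ± 0.40 in Oct4-MO embryos, with 1.05 ± 0.40 in Ccna2-MO embryos. Leaving out 1 array brought these down to 0.66 in Oct4-MO embryos (without uninjected replicate 2) and to 0.66 in Ccna2-MO embryos (without Ccna2-MO replicate 2). All 3 of its probe sets were higher in both knockdowns.

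Mrps23, which is specific to mitochondria, was the only member with probe sets that passed, and neither is its brightest. On the brightest, values were 109, 209 and 159.6 in Oct4-MO embryos, against 59.0, 100.4 and 93.2 in uninjected embryos, and 113, 239.9 and 228 in Ccna2-MO embryos, against 68.2, 75.5 and 118 in uninjected embryos. The log2 fold change was 0.79 ± 0.35 in Oct4-MO embryos, with 0.99 ± 0.35 in Ccna2-MO embryos, and the mean change of 0.89 ± 0.25 had an adjusted p of 0.087. The next probe set had 189, 238 and 296 in Oct4-MO embryos, against 122, 119.7 and 82.6 in uninjected embryos, and 92.7, 184 and 93.1 in Ccna2-MO embryos, against 55.8, 57.0 and 57.0 in uninjected embryos, with no overlap in either experiment. It rose by a mean of 0.96 ± 0.21 on the log2 scale (adjusted p = 0.040), and the dimmest rose by 1.11 ± 0.27 (adjusted p = 0.049998, at the threshold itself), where 2.32% of all probe sets passed. With the pair of pools as a block these adjusted p were 0.078 and 0.12, so both calls were lost, and they held with only 3 and 1 of the 12 arrays left out in turn. The probe sets of 1 gene share its RNA and are not separate evidence.

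**Figure D3:**
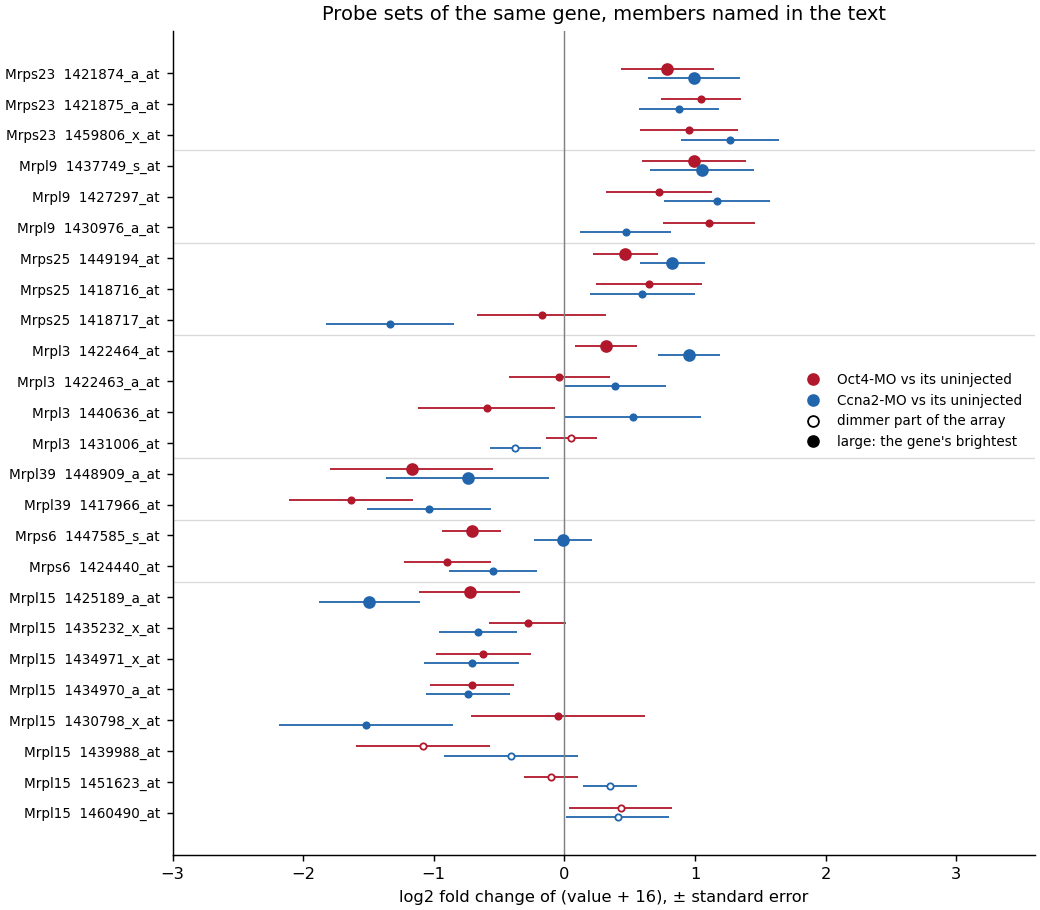
Log2 fold change of (value + 16) with its standard error for each probe set of 7 members in Oct4-MO (red) and Ccna2-MO embryos (blue) against their uninjected embryos, with the brightest probe set as the large symbol and open symbols for the dimmer part of the array. All probe sets of Mrps23 and Mrpl9 lie above 0 and both of Mrpl39 below, while those of Mrps25, Mrpl3 and Mrpl15 fall on both sides.

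Probe sets of the same gene did not always move together. Of the 27 members with at least 2 probe sets in the brighter part, 12 had the same sign on all of them in Oct4-MO embryos (44.4%, against 55.8% of 4969 genes) and 17 in Ccna2-MO embryos (63.0%, against 59.9%). Mrpl39, a mitochondrion-specific large subunit protein, was lower on both of its probe sets in each knockdown. On the brightest it had 193, 74.5 and 65.2 in Oct4-MO embryos, against 382, 204 and 183 in uninjected embryos, and 672, 86.1 and 97.0 in Ccna2-MO embryos, against 355, 320.2 and 281 in uninjected embryos. Its Ccna2-MO replicate 1 was the highest of all 12 while the other 2 were far below the controls, and the log2 fold change was -1.17 ± 0.62 in Oct4-MO embryos, with -0.74 ± 0.62 in Ccna2-MO embryos. The Ccna2-MO value was -1.63 without replicate 1, -0.26 without replicate 2 and -0.33 without replicate 3. Mrps6 was -0.71 in Oct4-MO embryos and -0.01 ± 0.23 in Ccna2-MO embryos. Its Ccna2-MO value was -0.28 with its probe sets averaged. Without probe sets of the x_at or s_at kind it was -0.55 (adjusted p = 0.51).

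The uninjected embryos of the experiments, which differ only in the experiment they came from, were compared as a measure of that background. No member passed, where 0.116% of all genes and 0.0912% of probe sets did, and 10 members were higher and 1 lower at an unadjusted p under 0.05, where 5.67% and 6.32% of all genes were. In 10 members all arrays of the Ccna2-MO experiment's uninjected embryos were above, and in 7 below, those of the Oct4-MO experiment (10.4% and 12.3% of all genes). Mrpl18 had 577, 588 and 601 in the uninjected embryos of the Ccna2-MO experiment, against 345, 232 and 286 in those of the Oct4-MO experiment, a log2 difference of 1.01 ± 0.20 (adjusted p = 0.099). Its log2 fold change in Oct4-MO embryos, measured against the lower of these control groups, was 0.70. Mrps12, Mrpl14 and Mrps14, which all have bacterial counterparts, differed by 1.60 ± 0.41, 0.81 ± 0.25 and 0.57 ± 0.18. Mrps14 differed by 0.04 (adjusted p = 0.97) when its probe sets were averaged, and the dim Mrpl14 by 0.31 with 64 added before log2 and by 1.87 with 1 added. Of the 4 groups, the uninjected embryos of the Ccna2-MO experiment had the highest mean for 29 members and Ccna2-MO embryos for 26. The uninjected embryos of the Oct4-MO experiment had it for 11 and Oct4-MO embryos for 9. This was not counted over all genes, so it is not read as a trait of the members. Between the uninjected groups the median log2 difference was 0.12 for the large subunit (30 of 46 above 0) and 0.09 for the small subunit (18 of 29). Over all genes it was -0.02, with 52.1% below 0. With an array left out these medians ran between 0.02 and 0.22 for the large and between -0.02 and 0.22 for the small subunit.

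**Figure D4:**
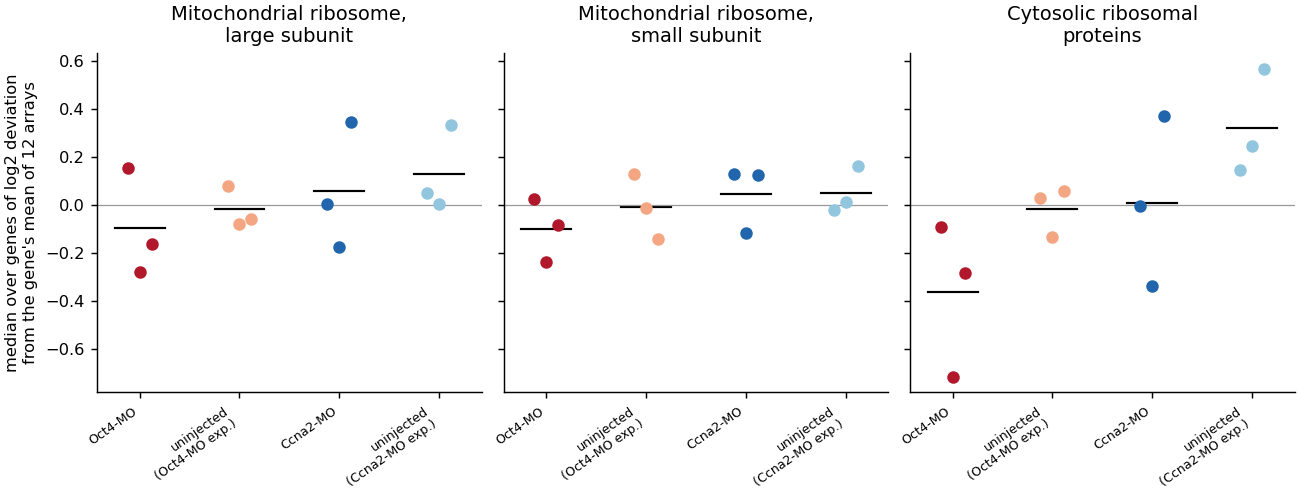
Median over genes of the log2 deviation from each gene's mean of 12 arrays, for large subunit, small subunit and cytosolic ribosomal protein genes, by array and group, with the group mean as a line. The arrays of the mitochondrial lists overlap between injected and uninjected embryos, and Oct4-MO replicate 2 is the lowest in all 3 panels.

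Array by array, the large subunit genes lay at a median of -0.28 to 0.15 in Oct4-MO embryos, -0.08 to 0.08 among their controls, -0.17 to 0.34 in Ccna2-MO embryos and 0.0027 to 0.33 among their controls. Oct4-MO replicate 2 was lowest. For the 49 cytosolic ribosomal protein genes, whose products make up the other ribosome of the cell, the median reached -0.71 on that array. In each knockdown 43 of these 49 were below 0, with a median of -0.25 after Oct4-MO injection and -0.31 after Ccna2-MO injection, where 48.5% of all genes were below 0 after Oct4-MO and 46.8% after Ccna2-MO injection, and 0 and 1 of them passed, where 0.0936% and 0.93% of all genes did. Between the uninjected groups 43 of the 49 were above 0 in the Ccna2-MO experiment relative to the Oct4-MO experiment. Their median was 0.33 and 1 passed, where over all genes the median was -0.02, 52.1% were below 0 and 0.116% passed. The 82 nuclear-encoded respiratory chain genes had a median of -0.13 in Oct4-MO embryos, with -0.11 in Ccna2-MO embryos. The medians of mitochondrial ribosomal protein genes were nearer to those of all genes than the medians of cytosolic ribosomal protein genes were, a description for which no test was made.

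Genes that build or serve the mitochondrial ribosome were described in the same way. The 27 assembly and rRNA modification factors measured had a median of -0.17 after Oct4-MO injection and -0.30 after Ccna2-MO injection, and none passed. The smallest p in Oct4-MO embryos belonged to the pseudouridine synthase family genes Rpusd3 (-1.76 ± 0.49) and Trub2 (-0.87 ± 0.27). Next was the tRNA methyltransferase gene Trmt61b (-1.08 ± 0.48). In Ccna2-MO embryos Rcc1l (-1.40 ± 0.45), the GTPase gene Noa1 (-0.78 ± 0.30) and Trub2 (-0.56 ± 0.27) had the smallest p. Rcc1l was at low signal, with 2.53, 9.51 and 26.0 in Ccna2-MO embryos, against 58.7, 47.9 and 60.7 in uninjected embryos. Of 17 translation and RNA-binding factors 13 were measured, with a median of 0.19 in Oct4-MO embryos, with 0.37 in Ccna2-MO embryos. Mtfmt, which formylates the initiator tRNA, had a log2 fold change of 1.499 ± 0.38 in Ccna2-MO embryos (adjusted p = 0.096), and Mtrf1l, a release factor, of 1.31 ± 0.49 in Oct4-MO embryos. Mtrf1l had 33.7, 55.2 and 211 on the Oct4-MO arrays, replicate 3 far above the others, and was at 0.66 without it. Slirp, an RNA-binding protein that stabilises mitochondrial mRNA, was at -0.63 ± 0.32 in Oct4-MO embryos, with -0.94 ± 0.32 in Ccna2-MO embryos.

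Mtres1, a mitochondrial RNA-binding protein, was the only one of the 57 measured genes of these lists to pass, in the mean of both knockdowns, where 3.22% of all genes did. It had 1666, 666 and 1064 in Oct4-MO embryos, against 2328, 1899 and 2095 in uninjected embryos, and 1836, 1168 and 1827 in Ccna2-MO embryos, against 2301, 2524 and 2681 in uninjected embryos. All injected arrays were below all of their controls, and it fell by a mean of 0.82 ± 0.19 on the log2 scale (adjusted p = 0.045). The 12 transcription and DNA maintenance genes measured had a median of -0.04 in Oct4-MO embryos, with -0.42 in Ccna2-MO embryos and none called. Polg2 (-1.26 ± 0.56), Polg (-0.54 ± 0.32) and Twnk (0.54 ± 0.35) had the smallest p in Oct4-MO embryos, and Ssbp1 (-0.52 ± 0.19), Tefm (-0.90 ± 0.44) and Top1mt (-1.02 ± 0.52) in Ccna2-MO embryos. The Top1mt change lay with 1 array: it had 31.6, 13.4 and 9.95 in Ccna2-MO embryos, against 25.6, 190.9 and 19.1 in uninjected embryos, and was at -0.21 without uninjected replicate 2. Without Ccna2-MO replicate 2, Ssbp1 was at -0.27 and Tefm at -0.47. These genes encode the mitochondrial DNA polymerase, helicase, single-strand binding protein, transcription elongation factor and topoisomerase. ND5, the only product of the mitochondrial genome measured here, was at -0.06 ± 0.06 in Oct4-MO embryos, with -0.10 ± 0.06 in Ccna2-MO embryos.

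The 4 measured mitochondrial ribosomal proteins with other symbols did not pass either. Dap3, a small subunit GTP-binding protein, was at -0.01 ± 0.25 in Oct4-MO embryos and 0.61 ± 0.25 in Ccna2-MO embryos. In Oct4-MO embryos Ptcd3 was at -0.55 ± 0.28, Gadd45gip1 at -0.38 ± 0.33 and Chchd1 at 0.31 ± 0.49, and in Ccna2-MO embryos they were at 0.16 ± 0.28, -0.53 ± 0.33 and 0.56 ± 0.49. Members with a bacterial counterpart (46) had a median of -0.02 in Oct4-MO embryos, with -0.01 in Ccna2-MO embryos, and those specific to mitochondria (29) of 0.03 in Oct4-MO embryos, with -0.17 in Ccna2-MO embryos.

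**Figure D5:**
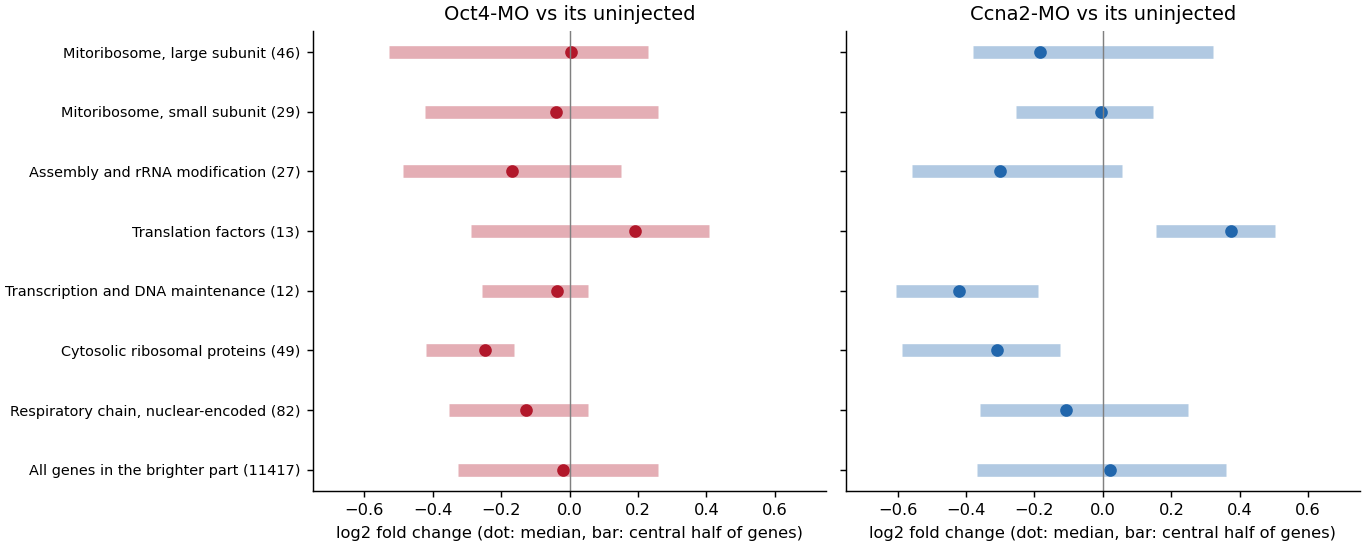
Median (dot) and central range of genes (bar, the quartiles) of the log2 fold change in Oct4-MO embryos (left) and Ccna2-MO embryos (right) against their uninjected embryos, for 8 gene lists with their numbers of genes. The medians of the large and small subunit lie between -0.19 and 0.01, and the cytosolic ribosomal protein medians at -0.25 and -0.31.

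The promoters of the members share short sequences that the rule did not use. RefSeq promoters (GRCm38.p6, 250 bases before to 50 after the start) matched 66 of the 75 genes, with 72 promoters. On either strand, the ETS motif CCGGAAG was in 33.3% of them (28.9% of large and 40.7% of small subunit promoters), against 8.86% of all 32851 promoters, 41.2% of cytosolic ribosomal protein and 23.9% of respiratory chain promoters. The NRF1 motif, GCGCA and GCGC with any base between them, was in 16.7%, against 4.6% of all promoters, 11.8% of cytosolic ribosomal protein and 22.5% of respiratory chain promoters. The YY1 motif AAGATGGC was in 16.7%, against 2.75%, 7.84% and 12.7% in the same order, and the GC box GGGCGGG in 43.1%, against 25.6%, 37.3% and 35.2%. The TATA motif TATAAA was in 6.94%, against 13.6%, and CCAAT in 40.3%, against 37.4%. The ETS motif ends and the YY1 motif begins with the same letters, so a stretch can hold both. A match is a description of letters and not of binding. The windows below are examples, taken for each motif from the members that hold it, ranked by their smallest p in either knockdown. Mrpl12 for NRF1 and Mrpl32 for YY1 ranked ahead of members shown. For Mrpl18, Mrpl9 and Mrpl36 the start used lies within the gene's span, downstream of its outermost start. Windows are written along the gene's strand with the match in capitals, and Mrpl36 holds the YY1 match in its opposite orientation.
Mrpl3 (ETS, chr9:105053237-105053266, + strand): ttgagaaacggaCCGGAAGtggcccggctg
Mrpl18 (ETS, chr17:12916312-12916341, - strand): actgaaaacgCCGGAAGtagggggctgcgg
Mrpl32 (NRF1, chr13:14613105-14613134, - strand): tttgacccttGCGCATGCGCaagaggggcc
Mrpl9 (NRF1, chr3:94443298-94443327, + strand): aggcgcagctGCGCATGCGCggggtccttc
Mrpl36 (YY1, chr13:73330968-73330997, + strand): cgtgaccttacGCCATCTTtcttcctggcg
Mrpl49 (YY1, chr19:6057721-6057750, - strand): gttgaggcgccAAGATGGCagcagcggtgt

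The 75 genes lie on 17 chromosomes, with 11 of them on chromosome 11. Of the members named above, Mrps23 lies at chr11:88194106-88211507, Mrpl15 at chr1:4773198-4785750 and Mrpl3 at chr9:105053268-105077466 (GRCm38.p6).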

How the data were processed

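The deposited values are intensities on a linear scale, 1 per probe set, which the authors had normalized in dChip. Its version and options are not given in the sources consulted. Of 45001 probe sets, 64 array controls were left out. Gene symbols came from the annotation of the array platform (34849 with 1 symbol, 928 with several, 9160 with none). Values were analysed as log2(value + 16), and fold changes on that scale understate those of dim genes. R 4.3.3 and limma 3.58.1 (lmFit, eBayes with an intensity trend) fitted 4 group means over 12 arrays, with Benjamini-Hochberg adjustment over 44937 probe sets and a threshold of 0.05. The scripts were tested on simulated data.

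Per the labels, each uninjected pool was cultured in parallel with the injected pool of the same number, so numbers pair the pools. Deviations of paired pools from their group means correlated at 0.105, 0.0613 and -0.000156 with Oct4-MO, and at -0.015, 0.111 and 0.15 with Ccna2-MO. The main model has no block, following the study's unpaired statistic.

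Members and lists were chosen with earlier results of these data known. Named genes are every member that passes, the 10 with the smallest p in each knockdown, the 4 with the smallest p in each other comparison, the 5 brightest and 3 dimmest, the Mrps18 paralogs, Mrps30, Mrps36, those in the study's lists, and the 3 with the smallest p per pathway list; Mrpl33 and Mrpl48 were named after their values were seen. Pools of 1 group are the replicates, and 3 arrays per group limit the precision. Alternatives covered the block, controls, variance prior, array weights, the methods' t-test, pseudocount, brightness filter, normalization, probe set rule and leaving out each array.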

Additional observations from a re-analysis of the deposited data

How the results depend on the processing

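The count of members called was 0 in all 5 comparisons and stayed at 0 in Oct4-MO embryos and in the difference between knockdowns under every alternative run. In the mean of both knockdowns it was 1 with array weights (Mrpl3), 5 in the brighter part of the array alone, where fewer probe sets are tested (Mrpl3, Mrpl9, Mrpl15, Mrps23, Mrps25), 2 when all probe sets of each gene were averaged (Mrpl9, Mrps23) and 1 with the replicate block (Mrpl33, adjusted p = 0.042, against 0.18 without it). It was 0 to 2 when an array was left out: 2 without the first Ccna2-MO array (Mrpl39, Mrps23), 1 without the third Ccna2-MO array (Mrps25) and 1 without the third Oct4-MO array (Mrpl21). It was 0 to 1 in Ccna2-MO embryos (Mrpl12, without the third Ccna2-MO array), and 1 between the uninjected groups with array weights (Mrpl18). The replicate block changed no other member call on the brightest probe set. The cause of these shifts was not tested, beyond the smaller test in the brighter part.

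The median of the large subunit in the difference between knockdowns was -0.05 and ran between -0.29 (without the first Oct4-MO array) and 0.14 with an array left out. With all 6 uninjected arrays as controls, the small subunit median in that difference was -0.27, against 0.01. Mrpl18 in the difference was then -0.35, against 0.66. The change of Mrps6 in Ccna2-MO embryos, -0.01, has no settled sign. It was 0.035 with all 6 uninjected arrays, 0.0093 with array weights and 0.019 after quantile normalization. With an array left out it ran between -0.20 (without the first uninjected array) and 0.14 (without the second Ccna2-MO array). With its probe sets averaged it was -0.28, and without x_at or s_at probe sets -0.55.

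The 2 calls of Mrps23 probe sets were lost with most arrays left out, and 1 of them with 1 added before log2 (adjusted p = 0.066). The methods' t-test was not run for the mean or the difference, and the block gives no value between the uninjected groups. The share of values under 16 and 3 arrays per group limit what can be called.

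Sizes of the named genes' changes moved by over 1.5 times in 12 of the values when a gene's probe sets were averaged, in 10 with 64 and in 4 with 1 added before log2, in 5 with all 6 uninjected arrays as controls, and in 2 without probe sets of the x_at or s_at kind. Among them, Mrps5 in Ccna2-MO embryos was -0.48 with 64 added, and Mrpl36 0.39 with 64 and 1.85 with 1 added.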
